A study of Mus musculus with 18 samples.

Results

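Penk, Cartpt, Iapp, Stc1 and Stc2 encode secreted peptide and glycoprotein hormones, and they are described here in the initial segment and caput (IS-caput) of the mouse epididymis. The 5 genes were taken by symbol from the 24346 genes of the deposited expression table. They were chosen by their measured FPKM in the 6 groups of this dataset, with those values known, so their levels are given as a description without a test. Wild-type males of 12 weeks were sampled after a sham operation (sham), after removal of both testes (bilateral orchidectomy, bilateral OD), or after removal of 1 testis (unilateral OD). The latter mice gave the ipsilateral side, on the operated flank, and the contralateral side, on the flank with the remaining testis. By the methods these were B6D1F1 males, the operated groups were sampled some weeks after surgery, and both sides came from the same 3 mice. Untreated wild-type (WT) and Nell2-/- males of 14 weeks made up the other 2 groups, and their libraries came from an earlier study by the same author. Each of the 6 groups held 3 libraries, 18 in all.

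The epididymis depends on the testis in 2 ways. Androgen and other hormones arrive in the blood, which is endocrine action, and testicular proteins such as NELL2 arrive in the luminal fluid through the efferent ducts, which is lumicrine action. Bilateral OD removed both, ipsilateral unilateral OD removed the luminal supply while the other testis kept supplying the blood, and Nell2 deletion removed 1 luminal ligand. Peptide hormones are made as longer precursors, which enter the secretory pathway and are cut by proprotein convertases and trimmed by carboxypeptidases. Penk encodes proenkephalin, the precursor of the enkephalin opioids. Cartpt encodes the precursor of CART peptides, known from brain and gut. Iapp encodes amylin, a peptide of the calcitonin family that pancreatic beta cells release with insulin. Stc1 and Stc2 encode stanniocalcins, glycoproteins first known from fish for calcium control. In mammals both inhibit the pappalysin proteases that release insulin-like growth factors (IGFs) from their binding proteins.

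All members are protein-coding genes of the mouse assembly GRCm38. Penk (gene 18619) lies at chr4:4133536-4138815, Cartpt (27220) at chr13:99898483-99910179, Iapp (15874) at chr6:142298425-142303820, Stc1 (20855) at chr14:69029289-69041401 and Stc2 (20856) at chr11:31359441-31370061. Of the 5 members, 3 had a promoter in the RefSeq table of GRCm38.p6 used here. Their last 120 bases before the start are shown because these 3 genes stood higher after bilateral OD. Capitals mark the cAMP response element TGACGTCA in Cartpt and the TATA variant TATATAA in Iapp:
Cartpt, chr13:99900684-99900803, minus strand: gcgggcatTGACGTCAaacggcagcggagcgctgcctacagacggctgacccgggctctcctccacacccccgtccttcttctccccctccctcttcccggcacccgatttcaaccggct
Iapp, chr6:142298305-142298424, plus strand: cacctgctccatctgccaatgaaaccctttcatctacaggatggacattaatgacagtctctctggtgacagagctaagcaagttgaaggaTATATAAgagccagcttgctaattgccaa
Stc2, chr11:31370062-31370181, minus strand: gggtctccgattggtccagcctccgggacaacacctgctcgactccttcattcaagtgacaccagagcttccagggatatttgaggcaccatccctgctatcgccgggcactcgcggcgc

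The 250 bases before each start were searched on both strands for 6 motifs. TGACGTCA began 112 bases before the Cartpt start and was held by 1.55% of 32851 promoters of the same length. TATATAA began 29 bases before the Iapp start and was held by 3.04% of them. The Cartpt window lies inside the gene span given above, so the Cartpt start used is not the outer end of that span. The Iapp and Stc2 windows adjoin the spans of their genes. The other motifs searched were TGCGTCA (1.75% of promoters), the ETS motif CCGGAAGT (2.88%), the steroid receptor motif AGAACA (16.1%) and TATAAA (12.4%), and none of the 3 promoters held them. The 2 TATA motifs share letters with each other, as do TGACGTCA and TGCGTCA, and AGAACA shares none of these stretches. These are matches of letters only. The 3 windows differed in composition, with 66.7% G and C in Cartpt, 60.8% in Stc2 and 44.2% in Iapp, where the median of all windows was 54.2%.

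Summed FPKM (fragments per kilobase of transcript, scaled to library size) ran from 528664 to 564806 in bilateral OD and from 777753 to 825866 in sham. Read totals are unknown, but the FPKM that 1 read is worth could be compared through low values and was 0.600 to 1.006 times that of sham replicate 1. The deleted gene, Nell2, was low in this tissue, so it could hardly check the labels: it was at 0.130, 0.0302 and 0.0610 FPKM in the WT libraries and at 0, 0.0274 and 0 FPKM in the Nell2-/- libraries. Markers of the expected tissue were present, with 7 epithelial markers summing to between 1173 and 1539 FPKM in every library. Over 12 markers of sperm and late germ cells, summed FPKM was 94.2 to 114 in sham and 17.01 to 18.3 in bilateral OD. It was 81.1 to 110 on the contralateral and 16.4 to 23.1 on the ipsilateral side. In WT it was 189 to 286 and in Nell2-/- 270 to 305. Most of the bilateral OD sum was Odf2, at 12.1 ± 0.316 FPKM there and 15.9 ± 1.21 in sham. Tssk6 was called higher, and 6 of the 12, Prm1 among them, were listed at 0 in all bilateral OD libraries. Prm1 was at 21.2 ± 3.39 FPKM in sham and 0.757 ± 0.415 on the ipsilateral side. Efferent duct ciliated cell markers (6 genes) summed to 26.9 to 27.8 FPKM in sham and 70.0 to 94.0 in bilateral OD. They summed to 19.7 to 25.6 on the contralateral and 28.7 to 35.6 on the ipsilateral side. In WT they summed to 23.9 to 29.9 and in Nell2-/- to 25.3 to 46.0. Nell2-/- replicate 2 had 11.3 FPKM of Foxj1, 1 of these markers, against 4.02 and 2.26 in replicates 1 and 3. Within bilateral OD, 1 library stood apart. Bilateral OD replicate 1 had a fibroblast marker sum of 229 FPKM against 856 and 855 in replicates 2 and 3, where sham had 291 to 372. Most of the sum in replicates 2 and 3 was decorin (Dcn), at 749 and 736 FPKM. After bilateral OD, 3 of the 6 markers were called lower and 2 higher (50% and 33.3%, against 31.4% and 30.4% of all genes tested). The sum is therefore no measure of fibroblast content. Values that move with this library are given with and without it.

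**Figure D1:**
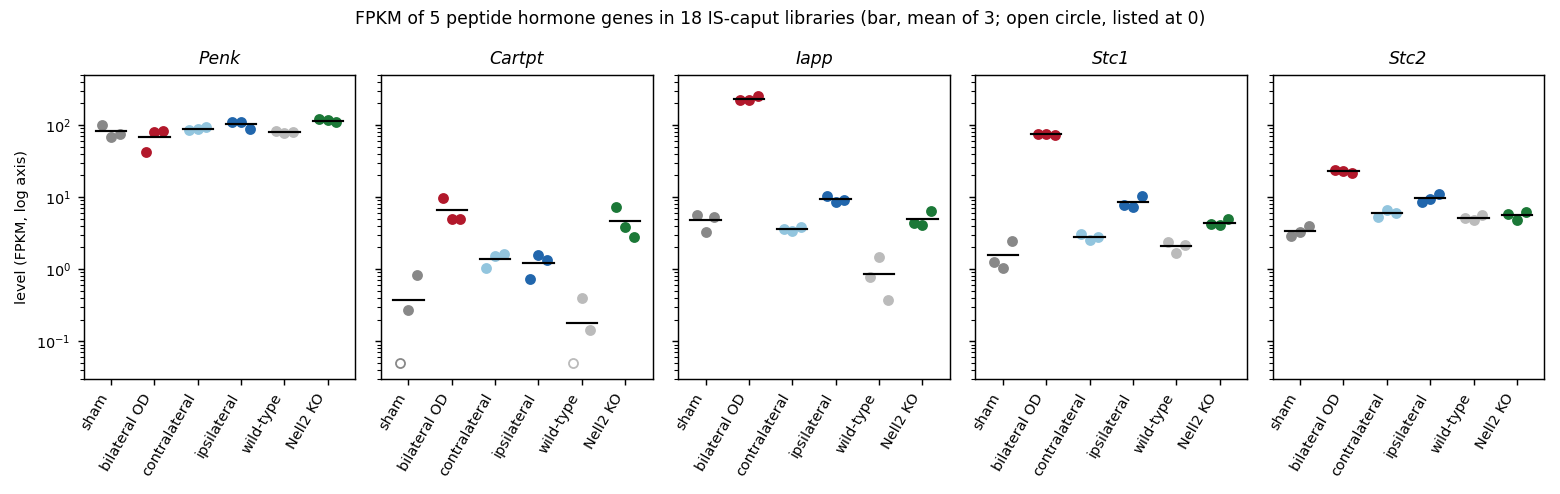
FPKM of the 5 members (log axis) in each of the 18 libraries, with 1 point for each library, a bar at the mean of 3, and open circles for libraries listed at 0. Iapp, Stc1 and Stc2 stand highest in the 3 bilateral OD libraries, whereas Penk lies between 42.8 and 119.7 FPKM in every group.

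Penk was the most abundant member in every group except bilateral OD, where Iapp stood above it and Stc1 overlapped it. Its levels in the sham libraries were 100.3, 68.8 and 74.4 FPKM, and in bilateral OD 42.8, 79.5 and 81.5 FPKM. The groups overlapped, and the mean of 67.9 ± 21.8 FPKM after bilateral OD (SD, n = 3) was 0.836 times the sham mean of 81.2 ± 16.8. Penk was taken up here as a testis-dependent gene of the initial segment, a description that does not come from the study's own report. In these IS-caput libraries it was not borne out as a loss of Penk RNA after OD. The initial segment was dissected together with the caput, so its own Penk level was not measured. In a tissue sample, fewer cells of a type and less RNA per cell cannot be told apart.

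The low value came from 1 library. Without bilateral OD replicate 1 the ratio of means was 0.991. Several stromal genes also separated that library from replicates 2 and 3. Dcn, which encodes decorin of the connective tissue matrix, was at 188 FPKM there and at 749 and 736 in replicates 2 and 3, with 199, 147 and 147 in sham, so that for Dcn it was replicates 2 and 3 that left the sham range. Col1a2, a fibrillar collagen chain, was at 9.11 there against 24.1 and 26.4, with 50.4, 40.7 and 39.5 in sham, so that all 3 bilateral OD libraries lay below sham and replicate 1 lowest. The part of these genes in the Penk value was not tested.

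On the contralateral side Penk was at 85.0, 87.3 and 93.3 FPKM, and on the ipsilateral side at 110.1, 112 and 88.5 FPKM. Ipsilateral replicate 3 fell within the contralateral range, so the sides overlapped at a ratio of 1.17. WT libraries had 82.2, 76.2 and 79.9 FPKM, and Nell2-/- libraries 119.7, 116 and 109 FPKM. Here the groups did not overlap, and the Nell2-/- mean of 115 ± 5.50 FPKM was 1.44 times the WT mean of 79.5 ± 3.02 (SD, n = 3 each). Ordered by mean, Penk ran from bilateral OD through WT, sham, contralateral and ipsilateral to Nell2-/-, and each neighbour in this order overlapped the next. Penk was thus a gene of fairly even level, with 705 to 1152 genes at a higher mean in the 6 groups.

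Iapp was a gene of low level in sham and an abundant one after bilateral OD. The sham libraries had 5.66, 3.30 and 5.24 FPKM and the bilateral OD libraries 220.4, 218 and 252 FPKM. The groups were far apart, with a mean of 230.1 ± 18.5 FPKM against 4.73 ± 1.26 and a ratio of 48.6. Among the 12924 genes whose mean over all libraries reached 1 FPKM, 12 had a larger ratio. Iapp was chosen with these values known, so nothing is read from that rank. In bilateral OD, 262 genes had a higher mean level than Iapp. The efferent duct ciliated cell markers were also higher in these libraries (70.0 to 94.0 FPKM against 26.9 to 27.8), and their part in this level and in those of Stc1, Stc2 and Cartpt was not tested. The sum of these markers did not overlap between the sides of unilateral OD either, although Foxj1 and Dnah5 overlapped when taken singly. Among them 2 of 6 (33.3%) were called higher on the ipsilateral side, against 16% of all genes tested. The part of these markers in the ipsilateral levels of Iapp, Stc1 and Stc2 was not tested.

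The ipsilateral libraries had 10.4, 8.62 and 9.08 FPKM of Iapp, and the contralateral ones 3.63, 3.41 and 3.90 FPKM. These did not overlap either, but the ratio was 2.57, far from that after bilateral OD. WT libraries had 0.779, 1.45 and 0.367 FPKM and Nell2-/- libraries 4.35, 4.13 and 6.47 FPKM, a ratio of 5.75 with no overlap, which was 8.70 without WT replicate 2. The Nell2-/- level nevertheless overlapped the sham level, and the 2 control groups differed, in that untreated WT males of 14 weeks lay below sham males of 12 weeks. Between contralateral and sham tissue Iapp overlapped, at a ratio of 0.770.

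Iapp lies in an intron of Slco1a5, which encodes an organic anion transporter and is read from the opposite strand, chr6:142234227-142322981. No exonic base of Iapp was shared with an exon of Slco1a5 in the annotation. Slco1a5 was at 11.5, 12.0 and 10.1 FPKM in sham and 66.8, 54.3 and 56.6 FPKM in bilateral OD. It rose after bilateral OD by 2.39 ± 0.09 on the log2(FPKM + 0.1) scale (SE, limma, adjusted p = 4.46e-13). The ipsilateral side exceeded the contralateral by 0.94 ± 0.09 (adjusted p = 4.68e-07), and Nell2-/- exceeded WT by 1.19 ± 0.09 (adjusted p = 1.84e-08). Slco1a5 was picked after its values were seen, as the gene that encloses Iapp. Whether the FPKM used strand is not given in the sources used here, and the part of intronic Slco1a5 reads in the Iapp level was not tested. Iapp exceeded Slco1a5 in all 3 bilateral OD libraries and lay below it in the other 15.

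Both stanniocalcins were low in the controls and higher in every bilateral OD library. Stc1 was at 1.27, 1.04 and 2.46 FPKM in sham and at 74.6, 74.8 and 72.5 FPKM in bilateral OD. The bilateral OD libraries agreed within an SD of 1.30 FPKM, and the ratio of means was 46.6. Sham replicate 3 held the highest control value, and without it the ratio was 64.0. Stc1 reached 7.75, 7.35 and 10.2 FPKM on the ipsilateral side against 3.06, 2.49 and 2.78 FPKM on the contralateral side, a ratio of 3.03 with no overlap. In Nell2-/- it was at 4.22, 4.07 and 4.91 FPKM against 2.37, 1.70 and 2.15 FPKM in WT, again without overlap, at a ratio of 2.13. Contralateral tissue also lay just above sham tissue, by a ratio of 1.75. From sham through WT, contralateral, Nell2-/- and ipsilateral to bilateral OD, only sham and WT overlapped as neighbours.

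The annotation places 229 of the 4197 exonic bases of Stc1 opposite an exon of Gm41192, an uncharacterized gene on the other strand. Gm41192 was not analysed here.

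Stc2 was also lowest in sham and highest in bilateral OD, with smaller ratios. It was at 2.88, 3.23 and 3.99 FPKM in sham and 23.7, 23.0 and 21.8 FPKM in bilateral OD, with no overlap and a ratio of 6.78. The ipsilateral libraries had 8.52, 9.32 and 11.1 FPKM and the contralateral ones 5.23, 6.66 and 6.09 FPKM, a ratio of 1.61 with no overlap. Nell2-/- (5.72, 4.81 and 6.11 FPKM) and WT (5.07, 4.79 and 5.69 FPKM) overlapped at a ratio of 1.07. Stc2 thus differed from Stc1 in the Nell2-/- comparison, although this difference was not tested. Contralateral tissue exceeded sham tissue in every library at a ratio of 1.78, which was larger than the ratio of ipsilateral to contralateral tissue. After bilateral OD, Stc1 stood above Stc2 (74.0 ± 1.30 against 22.8 ± 0.929 FPKM), while in sham Stc2 stood above Stc1 (3.37 ± 0.564 against 1.59 ± 0.759 FPKM).

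Cartpt was near the lower limit in both control groups. Sham libraries had 0, 0.270 and 0.841 FPKM and bilateral OD libraries 9.78, 4.98 and 4.96 FPKM, without overlap. The ratio of means was 17.7, and it was 48.6 without sham replicate 3 and 11.8 without sham replicate 1, so it rests on which of the low sham values enter. WT libraries had 0, 0.400 and 0.143 FPKM and Nell2-/- libraries 7.16, 3.82 and 2.83 FPKM. This ratio of 25.4 was larger than that after bilateral OD, but it became 64.5 without WT replicate 2 and 16.96 without WT replicate 1. Of the 12924 genes, 11 had a larger ratio in Nell2-/-, but nothing is read from this rank. Cartpt was chosen with these values known, and its WT values were at or near 0. Its mean reached 1 FPKM largely through bilateral OD and Nell2-/-, at 6.57 and 4.60 FPKM, against 0.181 to 1.39 in the other groups.

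Unilateral OD did not separate the sides for Cartpt. The ipsilateral libraries had 0.725, 1.56 and 1.34 FPKM and the contralateral ones 1.04, 1.54 and 1.60 FPKM, a ratio of 0.866 that became 1.04 without ipsilateral replicate 1. Both sides lay above most sham values, and contralateral tissue did not overlap sham at a ratio of 3.76. This ratio was 10.3 without sham replicate 3 and 2.51 without sham replicate 1. Nell2-/- and bilateral OD overlapped at the top of the order of groups, and the neighbours WT and sham, sham and ipsilateral, and ipsilateral and contralateral overlapped below them.

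**Figure D2:**
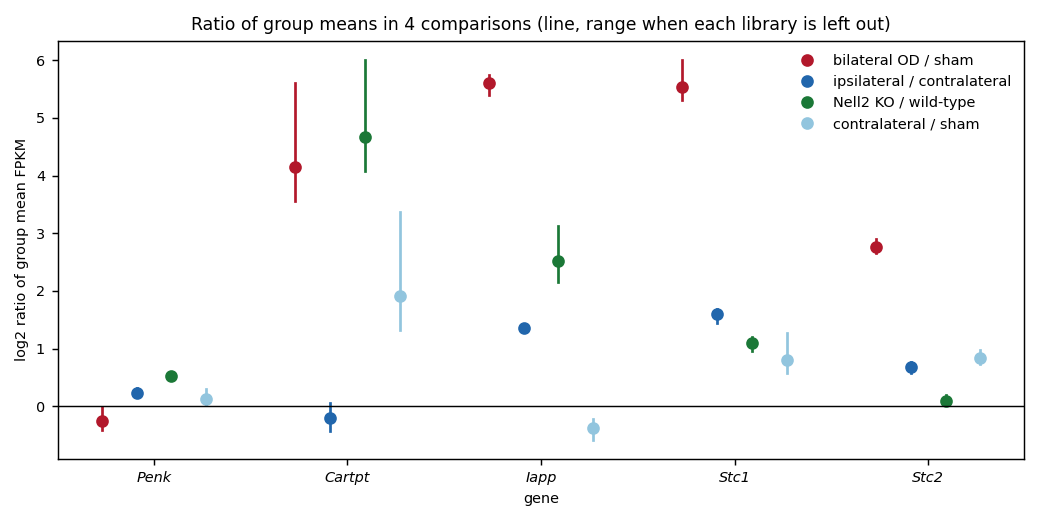
Log2 ratio of group mean FPKM for the 5 members in 4 comparisons, with a vertical line from the lowest to the highest ratio when each library was left out in turn. Iapp and Stc1 lie at 5.60 and 5.54 after bilateral OD, whereas the ratios between ipsilateral and contralateral tissue lie between -0.21 and 1.60.

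Across the members, 4 of 5 had groups that did not overlap after bilateral OD, where 63.3% of the 17302 genes tested did not overlap either. The same count was 3 of 5 between ipsilateral and contralateral tissue (46.7% of all genes), 4 of 5 between Nell2-/- and WT (48.9%) and 3 of 5 between contralateral and sham tissue (30.6%). All non-overlapping members were higher in the first-named group. The members were selected on these values, so nothing is read from the counts. Over the 18 libraries, Stc1 and Stc2 had a Pearson r of 0.97 on log2(FPKM + 0.1), Iapp and Stc1 of 0.91, and Iapp and Stc2 of 0.84. Cartpt had an r of 0.66 to 0.70 with these 3. Penk had an r between -0.35 and -0.04 with the other 4. These are descriptions over libraries that share groups, and the bilateral OD libraries lie far from the others.

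Genes with a pattern most like each member were taken as the 5 with the highest Pearson r over 18 libraries among 12923 other genes averaging 1 FPKM or more. For Penk these were Serping1 (r = 0.93), which encodes the C1 complement inhibitor, Scara5 (0.92), which encodes a ferritin receptor, Kdelc2 (0.91), Ppap2b (0.91) and Islr (0.90). Serping1 had the same dip in bilateral OD replicate 1, at 42.9 FPKM against 102 and 101.2 in the other 2 libraries. Islr showed it as well, at 6.02 FPKM against 13.7 and 14.9.

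For Iapp the list was led by Atp6v1g3 (r = 0.99), a subunit of the proton pump that acidifies the lumen, at 17.9 ± 0.532 FPKM in sham and 74.4 ± 6.26 in bilateral OD. Zfp788 (0.98), Mapkapk3 (0.97), the iron exporter Slc40a1 (0.97) and the ribosomal protein gene Rpl7 (0.97) followed. Rpl7 has processed copies in the genome, so its level is uncertain. For Stc1 the list was led by the beta-defensin Defb29 (r = 0.99), at 154 ± 31.6 FPKM in sham and 1042 ± 98.1 in bilateral OD. The thyroid hormone receptor Thra (0.99), the BMP antagonist Sostdc1 (0.99), Uhrf2 (0.98) and Dmrt2 (0.98) followed. Sostdc1 was listed at 0 in all sham libraries and was at 5.69 ± 0.412 FPKM in bilateral OD.

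For Stc2 the most similar gene was Heyl (r = 0.98), a transcriptional repressor of the Notch pathway, at 1.26 ± 0.208 FPKM in sham and 23.1 ± 2.43 in bilateral OD. Plxnb2 (0.97), Galnt14 (0.97), Stc1 (0.97) and Col15a1 (0.97) followed. For Cartpt the r values were lower, from 0.91 for Asap2 to 0.87 for 2610016A17Rik, and none of its 5 genes stayed in the list when 1 FPKM was added before taking logs.

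**Figure D3:**
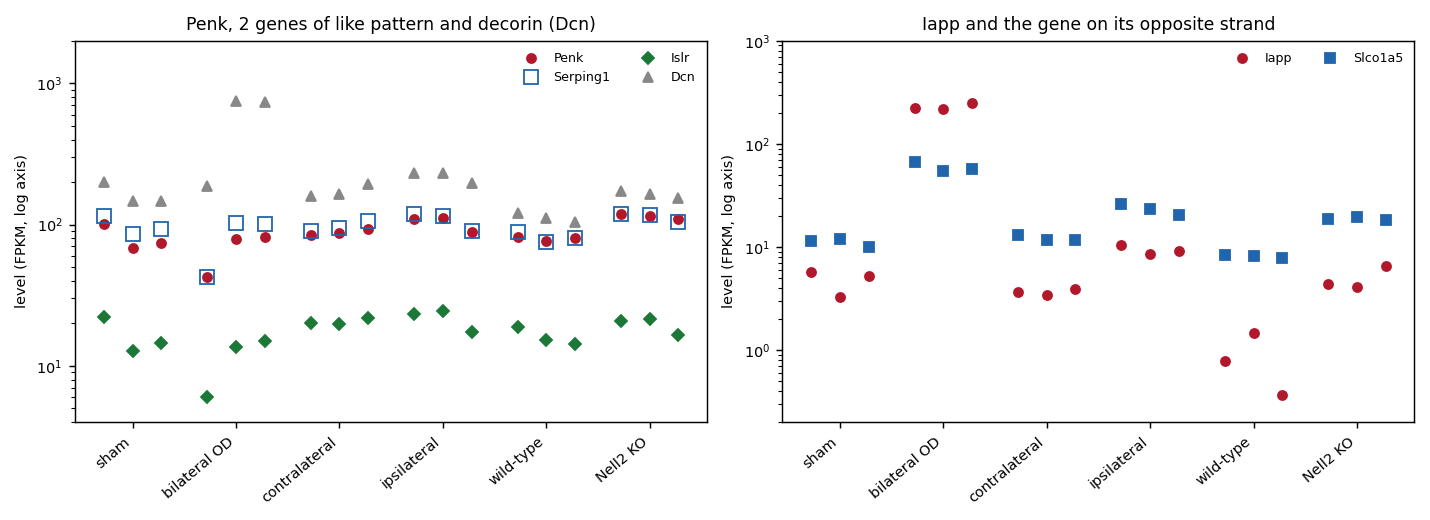
FPKM (log axis) in the 18 libraries, 1 point each: left, Penk with Serping1, Islr and Dcn; right, Iapp with Slco1a5, which encloses it on the opposite strand. Penk, Serping1 and Islr are lowest in bilateral OD replicate 1, and Iapp exceeds Slco1a5 in the 3 bilateral OD libraries alone.

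The other genes of peptide hormone biology came from 6 lists of 125 genes: related precursors, processing genes, receptors, the IGF axis, peptide-degrading enzymes and other peptide hormone precursors. Of these, 89 passed the filter of 0.1 FPKM in at least 3 libraries and were tested with limma, with p-values adjusted over all 17302 genes. After bilateral OD, 26 of the 89 fell and 30 rose, or 29.2% and 33.7%, where 31.4% and 30.4% of all genes tested fell and rose. On the ipsilateral side 9 fell and 13 rose, or 10.1% and 14.6%, against 18.6% and 16% of all genes. In Nell2-/- 9 fell and 17 rose, or 10.1% and 19.1%, against 18.6% and 17.8% of all genes. The change after bilateral OD differed from that after unilateral OD for 38 of the 89, or 42.7%, against 37.4% of all genes. The median log2 change of the 89 was 0.05 after bilateral OD, 0.00 on the ipsilateral side and 0.17 in Nell2-/-, where it was 0.02 over all genes in each comparison. No test of these shares against the background was made.

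Among 15 tested genes for propeptide processing and granules, 5 fell and 6 rose after bilateral OD, with a median log2 change of 0.28. These were 33.3% and 40%, against 31.4% and 30.4% of all genes tested. Pcsk5, a proprotein convertase, fell in all 3 comparisons, from 38.4 ± 1.07 FPKM in sham to 14.3 ± 1.14 in bilateral OD. Its log2 change was -1.43 ± 0.09 there, -2.20 ± 0.09 on the ipsilateral side and -2.16 ± 0.09 in Nell2-/- (SE, limma, adjusted p = 2.55e-10, 2.51e-12 and 2.38e-12). Furin, the convertase of the constitutive pathway, rose in all 3, by 0.28 ± 0.07, 0.34 ± 0.07 and 0.50 ± 0.07. Ctsl, a lysosomal protease that also cuts proenkephalin, fell after bilateral OD (389 ± 22.0 to 275 ± 13.9 FPKM) and rose on the ipsilateral side and in Nell2-/- (404 ± 12.6 in WT to 838 ± 11.3). Cpe, the carboxypeptidase that trims most prohormones, was at 115 ± 5.29 FPKM in sham and 88.8 ± 19.5 in bilateral OD (adjusted p = 0.00501), a call lost when only the libraries compared were fitted (adjusted p = 0.0646). Its log2 change of -0.39 became -0.19 without bilateral OD replicate 1, which was at 66.3 FPKM against 99.1 and 100.9.

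Scg5, Pcsk2 and Pcsk6 were singled out after their values were seen. Scg5, which encodes the chaperone 7B2 of proprotein convertase 2, was at 1.84, 3.68 and 3.97 FPKM in sham and at 117, 106 and 105 FPKM in bilateral OD. It rose by 5.14 ± 0.24 on the log2 scale (adjusted p = 1.40e-11). Scg5 rose in Nell2-/- also, by 1.31 ± 0.24 (adjusted p = 0.000326), while the sides of unilateral OD differed by 0.34 ± 0.24 (adjusted p = 0.300). Its partner Pcsk2 was at 0.117 ± 0.0197 FPKM in sham and 0.0143 ± 0.0248 in bilateral OD. Pcsk6, a convertase of growth factors, rose from 0.362 ± 0.0847 to 2.63 ± 0.162 FPKM after bilateral OD.

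For the precursors related to the members, 4 of 7 were tested and 2 rose after bilateral OD (50%, against 30.4% of all genes tested). Adm, which encodes adrenomedullin of the calcitonin family, went from 3.15 ± 0.450 to 10.3 ± 3.96 FPKM (log2 change 1.60 ± 0.23, adjusted p = 1.11e-05). Without bilateral OD replicate 1, at 5.70 FPKM against 12.3 and 12.8, the change was 1.97. Calca, the precursor of calcitonin and CGRP, was at 0.249 ± 0.217 and 1.15 ± 0.342 FPKM (adjusted p = 0.0288). That call was lost without bilateral OD replicate 2 (adjusted p = 0.0605), bilateral OD replicate 3 (0.0833) or sham replicate 2 (0.149). Pomc, precursor of the endorphins, and Adm2 were not called in any comparison.

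Of the 11 receptor and coreceptor genes tested, 3 fell and 6 rose after bilateral OD, with a median log2 change of 0.15. These were 27.3% and 54.5%, against 31.4% and 30.4% of all genes tested. Ramp3, which turns the calcitonin family receptors towards amylin or adrenomedullin, changed in opposite directions after the 2 operations. It went from 15.99 ± 7.53 to 7.81 ± 0.601 FPKM after bilateral OD, from 25.6 ± 4.65 to 63.8 ± 13.7 FPKM between the sides, and from 14.9 ± 2.18 to 45.8 ± 7.61 FPKM in Nell2-/-. All 3 changes were called (adjusted p = 0.00516, 0.000939 and 0.000131). Ackr3, a scavenger receptor that binds opioid peptides and adrenomedullin, rose from 10.9 ± 0.364 to 20.2 ± 5.38 FPKM after bilateral OD (adjusted p = 0.000153), by 0.84 on the log2 scale and by 1.07 without replicate 1, which was at 14.4 FPKM against 25.0 and 21.2. Oprk1, the kappa opioid receptor, was singled out after its values were seen. It was at 0.735, 0.278 and 0.823 FPKM in bilateral OD, and no library outside that group exceeded 0.0345 FPKM (adjusted p = 1.37e-06).

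The stanniocalcin targets and the IGF axis held 7 genes, all tested, of which 2 fell and 3 rose after bilateral OD. These were 28.6% and 42.9%, against 31.4% and 30.4% of all genes tested. Igf1r, the IGF receptor, fell in all comparisons, from 21.7 ± 1.38 to 8.38 ± 0.531 FPKM after bilateral OD, from 22.1 ± 1.29 to 6.09 ± 0.547 FPKM between the sides and from 30.8 ± 1.40 to 5.83 ± 0.220 FPKM in Nell2-/-. The adjusted p were 4.26e-11, 2.59e-12 and 5.40e-14. Pappa and Pappa2, the proteases that stanniocalcins inhibit, were both low and were singled out after their values were seen. Pappa rose from 0.157 ± 0.0458 to 0.444 ± 0.117 FPKM and Pappa2 fell from 0.482 ± 0.169 to 0.188 ± 0.0515 FPKM after bilateral OD. Igfbp5, an IGF binding protein, rose from 6.70 ± 0.968 to 12.3 ± 1.38 FPKM (adjusted p = 0.000114). Igfbp4, the main substrate of PAPPA, fell in Nell2-/- from 34.8 ± 4.22 to 19.6 ± 6.02 FPKM (adjusted p = 0.00607).

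All 15 peptide-degrading enzymes were tested, and 5 fell and 6 rose after bilateral OD. These were 33.3% and 40%, against 31.4% and 30.4% of all genes tested. Ace, which makes angiotensin II and also degrades enkephalins, went from 148 ± 44.6 to 36.0 ± 6.60 FPKM after bilateral OD. It rose from 236 ± 11.1 to 475 ± 56.1 FPKM between the sides and from 180 ± 18.4 to 439 ± 37.9 FPKM in Nell2-/-. Its changes were -2.01 ± 0.17, 1.004 ± 0.17 and 1.29 ± 0.17 on the log2 scale (adjusted p = 4.57e-08, 0.000232 and 1.69e-05). Mme, neprilysin, which inactivates enkephalins and was singled out after its values were seen, moved the other way, from 14.3 ± 1.03 to 23.8 ± 1.28 FPKM after bilateral OD and from 13.6 ± 0.582 to 5.09 ± 0.0638 FPKM between the sides. Ide, the insulin-degrading enzyme that also degrades amylin, fell in all 3 comparisons, by 0.99, 0.42 and 0.39 on the log2 scale.

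**Figure D4:**
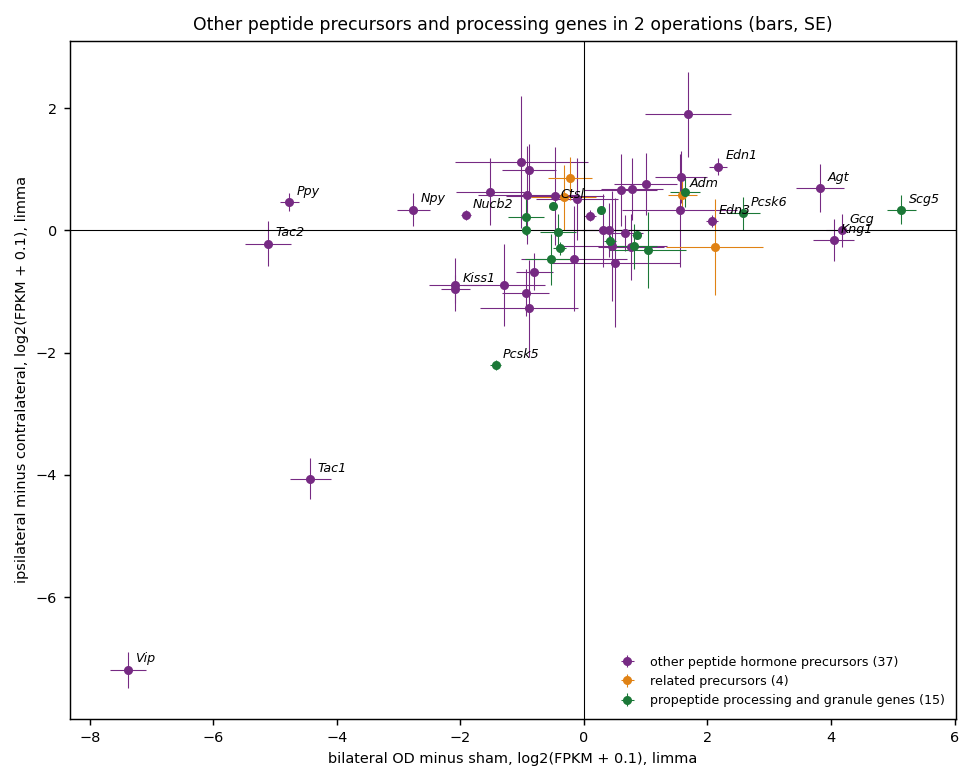
Log2 change in bilateral OD against sham (horizontal) and in ipsilateral against contralateral tissue (vertical) from limma on log2(FPKM + 0.1) for tested precursors and processing genes, with bars of 1 SE. Vip and Tac1 lie far down in both, whereas Ppy, Npy and Tac2 fell after bilateral OD and lie at 0.47, 0.34 and -0.22 on the vertical axis.

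The largest list held 65 other peptide hormone precursors, of which 15 were listed at 0 in every library and 37 were tested. After bilateral OD 11 fell and 7 rose, or 29.7% and 18.9%, against 31.4% and 30.4% of all genes tested. On the ipsilateral side 4 fell and 4 rose, or 10.8% and 10.8%, against 18.6% and 16%. In Nell2-/- 3 fell and 5 rose, or 8.11% and 13.5%, against 18.6% and 17.8%. Nucb2, the nesfatin precursor, fell from 308 ± 12.1 to 82.3 ± 12.01 FPKM after bilateral OD (adjusted p = 1.20e-12). Ppy, pancreatic polypeptide, fell from 55.4 ± 9.58 to 1.93 ± 0.260 FPKM, and Npy, neuropeptide Y, from 15.01 ± 4.22 to 2.23 ± 1.11 FPKM (adjusted p = 7.22e-14 and 4.01e-07). Ppy was at 44.8 ± 2.65 FPKM on the contralateral and 62.2 ± 7.41 FPKM on the ipsilateral side. This rise was called (limma, adjusted p = 0.0209), but the call was lost under 5 of 13 alternatives. Ppy also rose in Nell2-/-, from 33.9 ± 4.79 in WT to 54.3 ± 10.3 FPKM (adjusted p = 0.00167). For Nucb2, Ppy and Npy the change differed between the operations.

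The next genes were singled out after their values were seen. Vip, vasoactive intestinal peptide, was at 23.2, 20.6 and 27.4 FPKM in sham and at 0.106, 0.0408 and 0 FPKM in bilateral OD. On the contralateral side it was at 15.04, 16.4 and 18.4 FPKM and on the ipsilateral side at 0, 0 and 0.0497 FPKM. In WT it was at 6.49, 6.83 and 8.06 FPKM and in Nell2-/- at 0.442, 0.123 and 0.164 FPKM. All 3 losses were called (adjusted p = 5.56e-13, 2.94e-12 and 1.44e-09). Tac1, the substance P precursor, fell with it, from 2.50 ± 0.617 to 0.0216 ± 0.0375 FPKM after bilateral OD, and was listed at 0 in all ipsilateral libraries. Both are known as nerve peptides. The 11 nerve and Schwann cell markers summed to 5.60 to 7.31 FPKM in sham and 5.77 to 6.14 in bilateral OD, and Tubb3 was listed at 0 in all libraries of both.

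Tac2, Kiss1, Agt, Edn1, Edn3, Gcg, Ece1 and Kng1 were also picked after their values were seen. Tac2, the neurokinin B precursor, fell after bilateral OD from 6.79 ± 1.11 to 0.120 ± 0.114 FPKM and was at 4.63 ± 1.23 and 4.03 ± 1.34 FPKM on the contralateral and ipsilateral sides. Kiss1, the kisspeptin precursor, fell from 26.9 ± 3.26 to 6.28 ± 0.820 FPKM after bilateral OD and from 16.3 ± 3.53 to 8.52 ± 2.84 FPKM between the sides, but rose from 18.1 ± 4.07 to 46.8 ± 8.45 FPKM in Nell2-/-. The difference between unilateral OD and Nell2-/- was not tested. Agt, angiotensinogen, rose from 5.20 ± 3.05 to 67.7 ± 3.44 FPKM after bilateral OD (adjusted p = 1.13e-06). Edn1 and Edn3, the endothelins 1 and 3, rose to 11.5 ± 0.828 and 34.2 ± 3.22 FPKM from 2.49 ± 0.327 and 8.05 ± 0.690 FPKM. Gcg, the glucagon precursor, was at 2.60, 1.40 and 1.39 FPKM in bilateral OD and listed at 0 in all 15 other libraries. Ece1, the enzyme that activates endothelin, rose in all 3 comparisons, by 1.37 ± 0.06, 0.58 ± 0.06 and 0.52 ± 0.06 on the log2 scale. Kng1, the kininogen gene, which has a close copy that could share its reads, was at 0.0377 ± 0.0327 FPKM in sham and 2.13 ± 0.284 in bilateral OD.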

How the data were processed

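RNA of the IS-caput epididymis was sequenced from poly(A) mRNA in 18 libraries, as single-end reads of stranded libraries by the methods. Per the labels and methods, the authors aligned reads to mm10 with TopHat2 2.1.1 and made the deposited FPKM values, named normalized FPKM, with Cufflinks 2.2.1. How they were normalized further, and whether strand was used, is not given in the sources used here. Labels and methods name different makers of the RNA kit.

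Members and lists were chosen with earlier results of these data known. Member levels are given per library, with ratios of group mean FPKM. All other genes were fitted on log2(FPKM + 0.1) with limma 3.58.1 (R 4.3.3, eBayes with trend and robust) as 6 group means over 18 libraries with 12 residual degrees of freedom, without pairing. A gene was tested if it reached 0.1 FPKM in at least 3 libraries (17302 tested, 7044 left out) and called at a Benjamini-Hochberg adjusted p under 0.05. The FPKM scale and the added 0.1 understate changes of low genes. Genes named by rule were the 4 of each list with the highest mean, and others are said to be picked after their values were seen. By the methods, 3 mice each had bilateral OD, unilateral OD or a sham operation. Nothing in the labels says more of how replicates were collected than that they are separate samples. The p-values set each change against the spread between these samples. Steps were tested on simulated data. Alternatives were the added FPKM, the filter, median-ratio scaling, the samples fitted, the replicate block, each library left out, and an unadjusted unequal-variance rule with a 10-fold change. Promoters are from the RefSeq table for GRCm38.p6 and positions of the members from a RefSeq gene table. Exon overlaps and the position of Slco1a5 are from GENCODE vM21. The EDL and W/Wv samples were not analysed here.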

Additional observations from a re-analysis of the deposited data

Results flagged for a closer look

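For the genes below, the change after bilateral OD (against sham) differed from that after unilateral OD (ipsilateral against contralateral) by limma's test of the difference itself, on the log2(FPKM + 0.1) scale with adjusted p under 0.05. No explanation was weighed. A positive value means a more positive change after bilateral OD. Among precursors the difference was -5.24 for Ppy, -4.90 for Tac2, -3.10 for Npy, -2.16 for Nucb2 and -1.12 for Kiss1, and it was 4.20 for Kng1, 4.19 for Gcg, 3.13 for Agt, 1.91 for Edn3, 1.13 for Edn1 and 1.01 for Adm. The fitted values of Gcg and Kng1 depend on the added 0.1 FPKM because both were at or near 0 in the control libraries. The Adm difference lost its call without bilateral OD replicate 2 (adjusted p = 0.0604) or 3 (0.0623), ipsilateral replicate 2 (0.0570), contralateral replicate 1 (0.0505) or sham replicate 1 (0.0508), and with no filter (0.0585).

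Among processing genes the difference was 4.80 for Scg5, 2.30 for Pcsk6, 0.77 for Pcsk5, -0.90 for Ctsl and -1.15 for Pcsk2. The Pcsk2 difference lost its call under 10 of 18 alternatives, among them leaving out sham replicate 2 or 3, bilateral OD replicate 1 or 2, contralateral replicate 2 or 3, or ipsilateral replicate 1 or 3 (adjusted p between 0.0530 and 0.0896). Pcsk5 fell in both operations, by less after bilateral OD. Among receptors and the IGF axis it was 2.44 for Oprk1, -2.24 for Ramp3, 1.15 for Pappa, 0.86 for Igfbp5 and 0.48 for Igf1r. Among enzymes it was -3.01 for Ace, 2.12 for Mme, 0.79 for Ece1, -0.65 for Dpp4, -0.57 for Ide and -0.49 for Dpp3. Slco1a5, which encloses Iapp, had a difference of 1.45. The members themselves were not tested.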

How the results depend on the processing

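Among the named genes, no called direction reversed under any alternative fitted with limma. Other companion genes entered only the recomputed counts. Of the member ratios, 195 of 200 recomputed values stayed within the spread of the libraries. The other 5 came from means of log2(FPKM + 1), which gave 2.18 for Cartpt in Nell2-/-, 1.16 for Iapp and 1.31 for Stc1 between the sides, and 4.89 for Stc1 and 2.45 for Stc2 after bilateral OD, all with the same sign. The spread is a wide limit at low levels: Cartpt ratios of 11.8 and 48.6 after bilateral OD both stayed within it. Ratios of same-numbered libraries equal the means of log2(FPKM + 0.1) by arithmetic, so they are not a separate check. Counts of companion genes moved by over 1.5 times under 1 alternative, the unadjusted rule with a 10-fold change, which called 4 lower and 4 higher after bilateral OD, 2 and 0 between the sides, and 2 and 0 in Nell2-/-. By limma the same comparisons had 26 and 30, 9 and 13, and 9 and 17. Leaving out each library gave 23 to 25 lower and 26 to 30 higher after bilateral OD, 7 to 9 and 9 to 12 between the sides, 9 to 10 and 16 to 19 in Nell2-/-, and 33 to 38 that differed between operations. Among 2416 recomputed values of named genes, 62 lost and 28 gained a call. Calls that a single library could end include Dpp4, Ogfr and Ramp2 after bilateral OD and Ackr3, Cpe, Nucb2 and Ppy between the sides. With replicate number as a block the counts were 25 and 28, 7 and 13, 9 and 19, and 38. Labels do not tie the numbers to mice, so the pairing of the sides is unknown and was not used. The correlation of same-numbered libraries was 0.07, 0.09 and -0.04 between the sides, -0.11, -0.07 and -0.07 for bilateral OD with sham, and 0.11, 0.12 and 0.05 for Nell2-/- with WT. These values cannot show whether a number marks the same mouse. The p-values between the sides treat libraries from both sides of the same mice as separate. Genes like Stc1 kept 2 of 5 and those like Cartpt 0 of 5 when 1 FPKM was added. The FPKM give no read totals, so no counting interval could be given and values near 0 are the least certain.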
